A study of Homo sapiens with 6 samples.

Results

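The genes described here are 10 sensors and membrane-bound factors of the unfolded protein response (UPR), among the 27605 genes with values. They were chosen by name for their known roles and not by a rule on their values, but with earlier results of these data known. EIF2AK3 (PERK), ERN1 (IRE1), ATF6 and ATF6B are the sensors, XBP1 is the factor that IRE1 activates, CREB3, CREB3L2 and NFE2L1 are transcription factors that are made as proteins of the endoplasmic reticulum (ER) membrane, and MBTPS1 and MBTPS2 are the proteases that cut such factors free. The RNA of cells labelled HepG2, a line derived from a human liver cancer, was sequenced in control cells (shNC, genotype WT, 3 libraries) and in cells given lentivirus to knock down ARHGEF2, which encodes an activator of the GTPase RhoA (shARHGEF2, genotype ARHGEF2 knockdown, 3 libraries). All cells grew in DMEM with serum and antibiotics, and the labels give no ER stress agent for either group. Neither the number of hairpins behind the 3 shARHGEF2 libraries nor the number of separate cultures behind each group is given in the labels, so p-values measure the spread between these libraries, which may be technical. The study concerns ARHGEF2 and ER stress in liver cancer, and the comparison asks whether the transcripts of the stress machinery itself differed after ARHGEF2 knockdown.

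The UPR answers unfolded protein in the ER through 3 arms. PERK phosphorylates the translation factor eIF2alpha, which slows protein synthesis and favours translation of ATF4. IRE1 cuts a short intron out of XBP1 mRNA, and the spliced mRNA encodes an active transcription factor. ATF6 travels to the Golgi, where MBTPS1 and then MBTPS2 cut it so that its cytosolic part can enter the nucleus and bind the promoters of ER chaperone genes. In liver cells, which secrete large amounts of protein, these arms also act outside acute stress. Most of this control takes place on protein or by splicing, so the mRNA level of a sensor is not a reading of its activity.

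XBP1 carries the sequences that matter most for reading its values, and they are shown first. The gene lies on chromosome 22, minus strand, and the intron that IRE1 removes is the 26-base stretch at chr22:28796124-28796149 (GRCh38), inside exon 4 of 5 of an annotated unspliced transcript, in the coding sequence. In the lines that follow, the intron is in capitals and the 30 bases on each side are in lower case. The spliced form is that of an annotated spliced transcript over the same region.
XBP1 unspliced: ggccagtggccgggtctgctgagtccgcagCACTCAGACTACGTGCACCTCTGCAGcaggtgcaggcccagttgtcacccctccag
XBP1 spliced: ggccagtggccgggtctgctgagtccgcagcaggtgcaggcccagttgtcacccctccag
The FPKM table listed 6 of the 7 XBP1 transcripts annotated in GENCODE 29. Of these 6, 4 held the intron, and the annotated spliced transcript was not listed. FPKM, the fragments of a gene scaled by its transcript length and by all mapped fragments of the library, was given for each gene only, so the XBP1 values below do not separate the forms and say nothing about splicing.

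The promoter of XBP1 is also a textbook site of ATF6 binding, through the ER stress response element (ERSE). It was read from RefSeq as the 250 bases before the transcription start (GRCh38.p14, chr22:28800570-28800819, minus strand), with the ERSE match in capitals.
XBP1 promoter: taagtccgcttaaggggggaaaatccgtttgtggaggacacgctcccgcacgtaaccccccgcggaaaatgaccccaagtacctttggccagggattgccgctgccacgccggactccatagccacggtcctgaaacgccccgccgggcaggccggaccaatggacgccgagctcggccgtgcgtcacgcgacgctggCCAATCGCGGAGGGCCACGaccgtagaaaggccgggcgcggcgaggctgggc
The match lay at bases -52 to -34, counted from the start. The letters searched were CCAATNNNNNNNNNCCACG on both strands, and they occurred in 25 of 27305 genes with a RefSeq promoter (0.0916%). XBP1 was the only one of the 10 sensors and factors with a match in this window. Neither the shorter ERSE-II (ATTGG, 1 base of any kind, then CCACG, on either strand, 18 of 27305 genes, 0.0659%) nor the UPRE (TGACGTGG on either strand, 213 of 27305 genes, 0.780%) was found before any of the 10. A match is a description of the letters and is not evidence of binding in these cells.

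ARHGEF2 was examined first as the target of the hairpin. Its FPKM was 13.0, 14.4 and 13.9 in shNC replicates 1 to 3 and 4.25, 4.004 and 4.82 in shARHGEF2 replicates 1 to 3. The groups lay far apart, and the mean fell from 13.8 ± 0.700 to 4.36 ± 0.417 (SD, n = 3). The change on log2(FPKM + 1), the scale of every log2 fold change given here, was -1.47 (SE 0.11, adjusted p = 0.00244 in limma with Benjamini-Hochberg adjustment over 12291 genes). Over those 12291 genes, each with a mean of at least 0.5 FPKM, 34 passed an adjusted p under 0.05 or 0.277%, of which 24 were higher (0.195%) and 10 lower (0.0814%) in shARHGEF2. On leaving out 1 library this count ranged from 6 without shARHGEF2 replicate 3 to 102 without shNC replicate 3, and it was 0 with the replicate number as a block and 1 with no filter on low values. The ARHGEF2 call itself was lost with the block (adjusted p = 0.0716) and with no filter (adjusted p = 0.0701 in limma).

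The labelled cell type was set against fixed marker lists. Of 18 hepatocyte markers, 10 were in the table, and VTN alone exceeded 1 FPKM (5.51 to 6.60). The highest RBP4 value was 0.907 FPKM, and the other 8, AFP, APOA1 and HNF4A among them, did not exceed 0.248. ALB, AHSG, APOB, APOH, FGB, TF, TTR and FOXA2 were not in the table and have no value here. Each of the 27605 genes in the table was above 0 in at least 1 library, so undetected genes may have been left out. The reason for the absence of these 8 was not tested. The hepatocyte markers that were measured, AFP, SERPINA1 and HNF4A included, thus go against the label of a liver cell line, and the cells are called by their label only. KRT8, KRT18 and KRT19 of the simple epithelium list were high, while EPCAM and CDH1 stayed at or under 0.0547 FPKM. The summed FPKM of the 6 fibroblast markers was 39.8 to 52.7 in shNC and 38.7 to 45.6 in shARHGEF2, with LUM high and COL1A2 near 0. The summed leukocyte markers, nearly all CD68, were 60.7 to 88.0 and 75.3 to 85.8. The 4 endothelial markers in the table summed to 0.591 to 0.670 in shNC and 0.801 to 0.904 in shARHGEF2, nearly all PECAM1, and the 4 stratified epithelium markers to at most 1.46. Where such sums differed between the groups, their part in the results was not tested. In bulk RNA, fewer cells of a type and less RNA per cell cannot be told apart.

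None of the 10 sensors and factors passed the adjusted threshold (0 of 10, against 0.277% of all genes tested in limma). At an unadjusted p under 0.05, 2 of the 10 passed, XBP1 and NFE2L1, against 13.7% of all genes. For 3 of the 10 the libraries of the groups did not overlap, against 20.5% of all genes. These were XBP1 and NFE2L1 with higher values (11.3% of all genes) and ATF6B with lower values (9.17% of all genes) in shARHGEF2. The fitted change was above 0 for 6 (49.6% over all genes) and below 0 for 4. Its median was 0.07 on the log2 scale, against -0.002 over all genes tested. The median size of the change regardless of sign was 0.15 against 0.13. Exact two-sided permutation tests over the 6 libraries have 20 arrangements, and the smallest p they can give is 0.1.

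**Figure D1:**
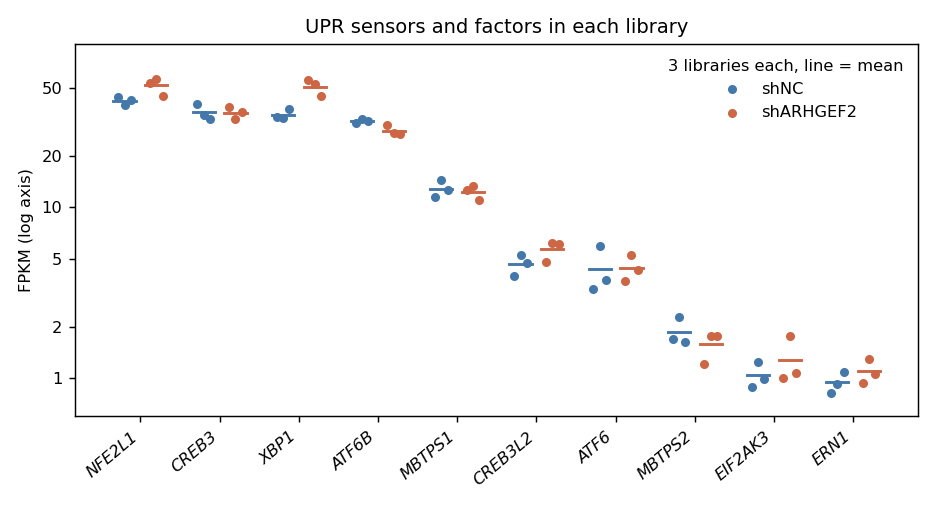
FPKM (log axis) of the 10 sensors and factors in each of the 3 shNC and 3 shARHGEF2 libraries, one point per library and a line at the group mean, ordered by the shNC mean. NFE2L1, CREB3, XBP1 and ATF6B lie above 25 FPKM, EIF2AK3 and ERN1 near 1, and only XBP1, NFE2L1 and ATF6B have groups that do not overlap.

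Of the 3 sensor genes that give the UPR arms their names, EIF2AK3 and ERN1 had the lowest levels of the 10 and ATF6 a middle one. EIF2AK3, the kinase PERK, had 0.894, 1.25 and 0.989 FPKM in shNC and 1.01, 1.77 and 1.07 FPKM in shARHGEF2. The groups overlapped, and shARHGEF2 replicate 2 held the highest value. The means were 1.04 ± 0.182 and 1.28 ± 0.422 FPKM (SD, n = 3), with a log2 fold change of 0.15 (SE 0.15, limma adjusted p = 0.731). Without that replicate the log2 fold change was 0.002, and with a pseudocount of 0.1 it was 0.25 (SE 0.26). The gene lies on chromosome 2 (chr2:88556741-88627576, minus strand, GRCh38). Its span, introns included, shares 18870 bases with AC104134.1 on the opposite strand, and whether any reads are shared was not tested.

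ERN1, the kinase and endoribonuclease IRE1 (chr17:64039142-64130819, minus strand), had 0.825, 0.927 and 1.10 FPKM in shNC and 0.942, 1.296 and 1.06 FPKM in shARHGEF2. Here too the groups overlapped. The means were 0.949 ± 0.137 and 1.10 ± 0.180 FPKM, with a log2 fold change of 0.11 (SE 0.12, limma adjusted p = 0.761). The 95% interval of FPKM + 1 ran from 0.893 to 1.296 fold, which understates the interval of a transcript near 1 FPKM. With a pseudocount of 0.1 the ERN1 change was 0.19 (SE 0.21), and without shARHGEF2 replicate 2 it was 0.04.

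ATF6 (chr1:161766294-161964070, plus strand) had 3.34, 5.91 and 3.78 FPKM in shNC and 3.72, 5.26 and 4.31 FPKM in shARHGEF2. Replicate 2 was the highest in both groups, and the groups overlapped fully. The means were 4.34 ± 1.37 and 4.43 ± 0.775 FPKM, with a log2 fold change of 0.04 (SE 0.19, limma adjusted p = 0.956). The same replicate 2 libraries had the most negative relation of expression to GC content over genes (Spearman's rho of each gene's deviation from its mean with GC, -0.465 and -0.289, against -0.027 to 0.570 in the other 4), and ATF6 transcripts are GC-poor at 41.3%. With the GC trend removed from each library, a step added after the data were seen, the ATF6 change was 0.06 (SE 0.12). The part of GC content in these values was not tested. The ATF6 span, introns included, shares 1364 bases with the pseudogene AL391825.1 on the same strand, and its part was not tested either.

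ATF6B, the paralogue of ATF6 (chr6:32115264-32128253, minus strand), was far more abundant, with 31.0, 33.0 and 32.0 FPKM in shNC and 30.2, 27.1 and 26.9 FPKM in shARHGEF2. All 3 shARHGEF2 values were below the lowest shNC value, by a small margin for replicate 1. The mean was 32.0 ± 0.987 FPKM in shNC and 28.1 ± 1.83 FPKM in shARHGEF2, with a log2 fold change of -0.18 (SE 0.09, limma adjusted p = 0.411, exact permutation p = 0.1). Its adjusted p ranged from 0.181 to 0.708 over 14 alternative settings. ATF6B shares 71 annotated bases with TNXB on the same strand, so reads there cannot be assigned by strand. The transcript levels of these paralogues differed by more than their spread in both groups, ATF6B being the higher.

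**Figure D2:**
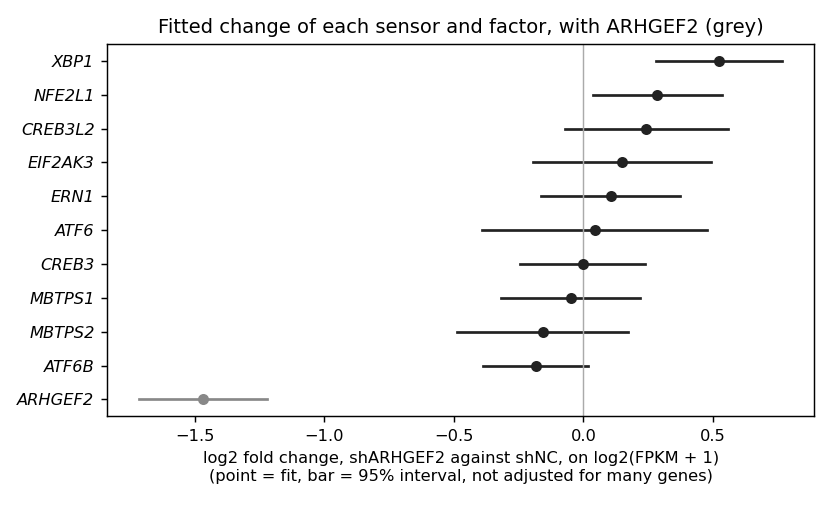
Fitted log2 fold change of shARHGEF2 against shNC on log2(FPKM + 1) for each sensor and factor and for ARHGEF2 (grey), with points for the fit and bars for its 95% interval, not adjusted for many genes. The intervals of XBP1 and NFE2L1 lie above 0, the other 8 cross 0, and ARHGEF2 stands at -1.47.

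XBP1 (chr22:28794555-28800597, minus strand) stood nearest to the threshold. It had 33.7, 33.2 and 37.5 FPKM in shNC and 55.2, 52.2 and 44.5 FPKM in shARHGEF2. Every shARHGEF2 library was above every shNC library, and the nearest were shARHGEF2 replicate 3 and shNC replicate 3. The mean was 34.8 ± 2.36 FPKM in shNC and 50.7 ± 5.55 FPKM in shARHGEF2. On the log2 scale the change was 0.52 (SE 0.11, 95% interval 1.22 to 1.70 fold), and XBP1 ranked 97 of 12291 genes by unadjusted p. It did not pass after adjustment (limma adjusted p = 0.114, exact permutation p = 0.1). Over 14 alternative settings the log2 fold change stayed between 0.46 and 0.61 and the adjusted p between 0.0757 and 0.402.

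In the order of levels, XBP1 was the third in shNC, where its libraries overlapped with those of CREB3. They stood above those of ATF6B by a small margin only (lowest XBP1 33.2, highest ATF6B 33.0 FPKM). In shARHGEF2 XBP1 was the second, overlapped with NFE2L1 and stood apart from CREB3. FPKM is scaled by transcript length, but GC content and the choice of listed transcripts may also affect the level of a gene. Their part in the order between genes was not tested. The genes whose log2(FPKM + 1) followed XBP1 most closely over the 6 libraries were SLC12A7 (Pearson r = 0.996), TMEM109 (r = 0.996) and SYT7 (r = 0.993). SLC12A7 encodes a potassium-chloride cotransporter and SYT7 a synaptotagmin. Such r values describe 6 libraries in 2 groups, and 451 genes exceeded an r of 0.9 with XBP1.

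NFE2L1 (chr17:48048329-48061487, plus strand) encodes an ER-anchored factor that drives proteasome genes once it is released and processed. Its mean was the highest of the 10 in both groups, but its libraries overlapped with those of CREB3 in shNC and of XBP1 in shARHGEF2. NFE2L1 had 43.9, 39.4 and 42.4 FPKM in shNC and 53.5, 56.5 and 44.4 FPKM in shARHGEF2. The groups did not overlap, but shARHGEF2 replicate 3 lay just above shNC replicate 1. The means were 41.9 ± 2.27 and 51.5 ± 6.30 FPKM, with a log2 fold change of 0.29 (SE 0.11, 95% interval 1.03 to 1.45 fold). It did not pass after adjustment (limma adjusted p = 0.304, exact permutation p = 0.1).

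Among the 45 pairs of the 10 genes, NFE2L1 and XBP1 had the highest correlation over the 6 libraries (r = 0.907). Both were lowest among the shARHGEF2 libraries in replicate 3. The genes closest to NFE2L1 were DHCR7, a late enzyme of cholesterol synthesis (r = 0.975), YIF1B, a protein of ER-to-Golgi transport (r = 0.974), and ZNF467 (r = 0.972). In all, 90 genes exceeded an r of 0.9 with it.

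CREB3L2 (chr7:137874979-138002067, minus strand), an ER-bound factor known from secretory cells, had 3.97, 5.23 and 4.71 FPKM in shNC and 4.79, 6.17 and 6.07 FPKM in shARHGEF2. Replicate 1 was the lowest in both groups, and the groups overlapped. The means were 4.64 ± 0.634 and 5.68 ± 0.772 FPKM, with a log2 fold change of 0.24 (SE 0.14, limma adjusted p = 0.481), and 0.16 without shNC replicate 1.

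CREB3 (chr9:35732335-35737004, plus strand), the founding member of that family, had nearly the same mean in both groups. It had 40.1, 34.4 and 32.9 FPKM in shNC and 38.3, 32.9 and 35.9 FPKM in shARHGEF2. Replicate 1 was the highest in both groups. The means were 35.8 ± 3.78 and 35.7 ± 2.72 FPKM, with a log2 fold change of -0.003 (SE 0.11, limma adjusted p = 0.996). The 95% interval of 0.844 to 1.18 fold bounds the difference these libraries could have missed. CREB3 overlaps GBA2 by 139 bases and TLN1 by 61 bases on the opposite strand. The library kit marks strand, but the counting setting is not given in the sources used here, so reads in these bases cannot be assigned with certainty.

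The proteases of the Golgi were measured at different levels. MBTPS1 (site 1 protease, chr16:84053761-84116906, minus strand) had 11.6, 14.4 and 12.5 FPKM in shNC and 12.6, 13.3 and 11.1 FPKM in shARHGEF2. The groups overlapped, with means of 12.8 ± 1.44 and 12.3 ± 1.16 FPKM and a log2 fold change of -0.05 (SE 0.12, limma adjusted p = 0.903). MBTPS2 (site 2 protease, chrX:21839636-21885424, plus strand), which makes the final cut within the membrane, had 1.71, 2.29 and 1.64 FPKM in shNC and 1.21, 1.77 and 1.77 FPKM in shARHGEF2.

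The MBTPS2 groups overlapped as well. The means were 1.88 ± 0.355 and 1.58 ± 0.324 FPKM, with a log2 fold change of -0.16 (SE 0.15, limma adjusted p = 0.696). The change was -0.05 without shARHGEF2 replicate 1, -0.06 without shNC replicate 2 and -0.24 with a pseudocount of 0.1. The gene span of MBTPS2 shares 2741 bases with YY2 on the same strand, and that of MBTPS1 shares 612 with AC040169.3. These spans include introns, and whether any reads are shared was not tested. In every library MBTPS1 was above MBTPS2.

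Over the 10 genes the shNC means spanned 44.1-fold, from ERN1 to NFE2L1. The order in shNC was NFE2L1, CREB3, XBP1, ATF6B, MBTPS1, CREB3L2, ATF6, MBTPS2, EIF2AK3 and ERN1. The neighbours NFE2L1 and CREB3, CREB3 and XBP1, CREB3L2 and ATF6, and EIF2AK3 and ERN1 overlapped in their library values. The other neighbours stood apart, XBP1 and ATF6B only narrowly. In shARHGEF2 the order was the same except that XBP1 stood above CREB3, and MBTPS2 then overlapped with EIF2AK3. The levels therefore fell into a tier of NFE2L1, CREB3, XBP1 and ATF6B above 25 FPKM in every library and a low tier of MBTPS2, EIF2AK3 and ERN1 below 2.5 FPKM, with MBTPS1, CREB3L2 and ATF6 between them.

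Genes around these sensors and factors, among them targets, partners and relatives, were taken from lists made by function. The lists were drawn up with earlier results of these data known, so their counts are a description only. The list of the ATF6 arm and ER chaperones, 18 chaperone and ER-associated degradation genes, had the highest median change of the 7 lists. Its values do not separate ATF6 from the other arms. No gene of it passed after adjustment (0 of 18, against 0.277% of all genes in limma). Of the 18, 15 had a fitted change above 0 (49.6% over all genes), 6 had a higher value at an unadjusted p under 0.05 (8.1% over all genes, in that direction) and 0 a lower one. The groups of 6 did not overlap with higher values (11.3% over all genes), and those of 1 with lower values (9.17% over all genes). The median was 0.20 on the log2 scale and stayed between 0.17 and 0.28 in 14 alternative settings. Summed over the list, FPKM was 1140 to 1286 in the shNC libraries and 1332 to 1722 in the shARHGEF2 libraries.

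HSPA5 (BiP, GRP78), the chaperone that holds the sensors inactive, had 103, 129 and 133 FPKM in shNC and 168, 329 and 198 FPKM in shARHGEF2. All 3 shARHGEF2 libraries were above all 3 shNC libraries, and replicate 2 stood well above the others of its group. The log2 fold change was 0.87 (SE 0.25, limma adjusted p = 0.222), and 0.59 without that replicate. HSPA5, MANF and PDIA4 were chosen after their values were seen, and any other list gene chosen in that way is marked where it appears.

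HERPUD1, a membrane component of ER-associated degradation, had 5.33, 5.74 and 8.23 FPKM in shNC and 11.7, 18.3 and 10.3 FPKM in shARHGEF2. Its groups did not overlap either, and its log2 fold change was 0.94 (SE 0.22, limma adjusted p = 0.138). HYOU1, an ER chaperone of the HSP70 family, had 28.4, 31.8 and 32.1 FPKM in shNC and 48.3, 40.1 and 39.2 FPKM in shARHGEF2, with a log2 fold change of 0.45 (SE 0.11, limma adjusted p = 0.136). For HSPA5 and HERPUD1 the highest library was shARHGEF2 replicate 2, whereas for HYOU1, as for XBP1, it was replicate 1. The log2 fold changes of MANF, a secreted ER stress protein (0.59, adjusted p = 0.175), SYVN1, the ubiquitin ligase HRD1 (0.49, adjusted p = 0.158), and PDIA4, a disulfide isomerase (0.33, adjusted p = 0.238), did not pass in limma. DERL2, a degradation factor, was at -0.27 (adjusted p = 0.367 in limma) with groups that did not overlap, and SEL1L, the partner of SYVN1, at -0.06 (adjusted p = 0.916).

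**Figure D3:**
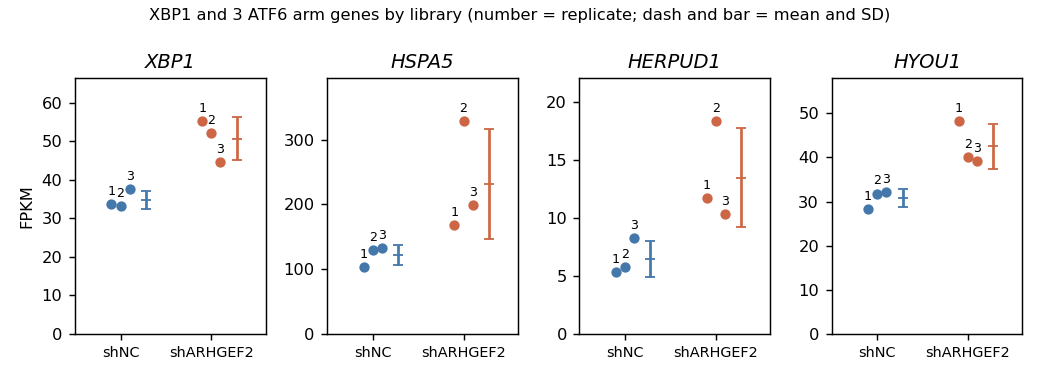
FPKM by library of XBP1, HSPA5, HERPUD1 and HYOU1, with the replicate number at each point and a dash and bar for the mean and SD of 3 libraries. Each vertical axis starts at 0, the shARHGEF2 points lie above the shNC points in all 4 panels, and shARHGEF2 replicate 2 stands apart for HSPA5 at 329 FPKM.

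The ERSE letters were also read in the promoters of this list, because its genes are the textbook ERSE carriers. Of 15 list genes with a RefSeq promoter, 6 held an ERSE (CALR, CANX, CRELD2, HSP90B1, HSPA5 and PDIA6) and 3 an ERSE-II (HERPUD1, HYOU1 and SDF2L1). The matches of the genes whose values are given above are printed in capitals throughout, on the strand where they read as the motif.
XBP1 ERSE at bases -52 to -34: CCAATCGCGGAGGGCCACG
HSPA5 ERSE at bases -66 to -48: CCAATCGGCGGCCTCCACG
HERPUD1 ERSE-II at bases -117 to -107: ATTGGGCCACG
HYOU1 ERSE-II at bases -185 to -175 and again at -79 to -69: ATTGGACCACG
The HYOU1 copy farther from the start overlapped a UPRE match. Holding a match did not go with 1 size of change. CRELD2, with an ERSE, was at -0.03, CANX, with an ERSE, at 0.03, and HSPA5 at 0.87 on the log2 scale. None of them passed in limma (adjusted p = 0.937, 0.961 and 0.222). CALR, HSP90B1, PDIA6 and SDF2L1 were at 0.14, 0.33, 0.19 and 0.13. Among the ERSE and ERSE-II carriers of this list, CRELD2 alone had a change below 0 (49.6% of all genes were above 0). The list genes with no such match found were above 0 as well, except DERL2 and SEL1L. The direction was thus not particular to the carriers. CRELD2, CANX, CALR, HSP90B1, PDIA6 and SDF2L1 too were chosen after their values were seen.

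The PERK arm list of 15 genes held the 1 gene of all 7 lists that passed (1 of 15, against 0.277% of all genes in either direction and 0.0814% with lower values). DDIT4 (REDD1), a stress-induced inhibitor of mTORC1 signalling, had 242, 248 and 213 FPKM in shNC and 154, 155 and 155 FPKM in shARHGEF2. The groups lay apart, and the mean fell from 235 ± 18.7 to 154 ± 0.251 FPKM (n = 3). The log2 fold change was -0.60 (SE 0.09, limma adjusted p = 0.0395), the smallest in size among the 34 genes that passed. It passed in only 3 of 14 alternative settings. Without shNC replicate 3 the adjusted p was 0.0266, and without shNC replicate 1 or 2 or shARHGEF2 replicate 1, 2 or 3 it was 0.132, 0.115, 0.104, 0.104 and 0.128 in limma.

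The other 14 genes of the PERK list did not pass. DDIT3 (CHOP), the transcription factor linked to death under lasting ER stress, had 8.77, 7.73 and 15.2 FPKM in shNC and 13.8, 39.0 and 23.5 FPKM in shARHGEF2. The groups overlapped, replicate 2 was again the highest of its group, and the log2 fold change was 1.13 (SE 0.42, limma adjusted p = 0.336). PPP1R15A (GADD34), which directs dephosphorylation of eIF2alpha, was at 0.36 (adjusted p = 0.356) and CHAC1, a glutathione-degrading enzyme induced through ATF4, at -0.49 (adjusted p = 0.406 in limma). Over the list 9 changes were above 0 (49.6% over all genes) and 6 below, with a median of 0.05. At an unadjusted p under 0.05, 2 of 15 had higher and 1 lower values, against 8.1% and 5.55% of all genes.

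In the IRE1 arm list, 14 of 15 genes were measured, ERN2 not being in the table. None passed in limma (0 of 14, against 0.277% of all genes). Of the 14, 10 changes were above 0 (49.6% over all genes) and 4 below, with a median of 0.07. At an unadjusted p under 0.05 there were 4 with a higher value and 0 with a lower one, against 8.1% and 5.55% of all genes. KDELR2, a receptor that returns ER proteins from the Golgi, had means of 42.7 ± 2.23 and 59.5 ± 9.60 FPKM and a log2 fold change of 0.46 (limma adjusted p = 0.175). WFS1, an ER membrane protein of calcium balance, was at 0.57 (adjusted p = 0.245 in limma), with 5.53, 5.28 and 5.40 FPKM in shNC and 10.9, 5.92 and 9.37 FPKM in shARHGEF2. BLOC1S1, an mRNA that IRE1 is known to cleave, was at -0.12 (adjusted p = 0.646) and SSR1, of the translocon, at -0.21 (adjusted p = 0.693 in limma). DNAJB9 (ERdj4) and EDEM1, both known XBP1 targets, were at 0.27 and 0.05 on the log2 scale (adjusted p = 0.485 and 0.919 in limma), and these 2 were chosen after their values were seen.

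**Figure D4:**
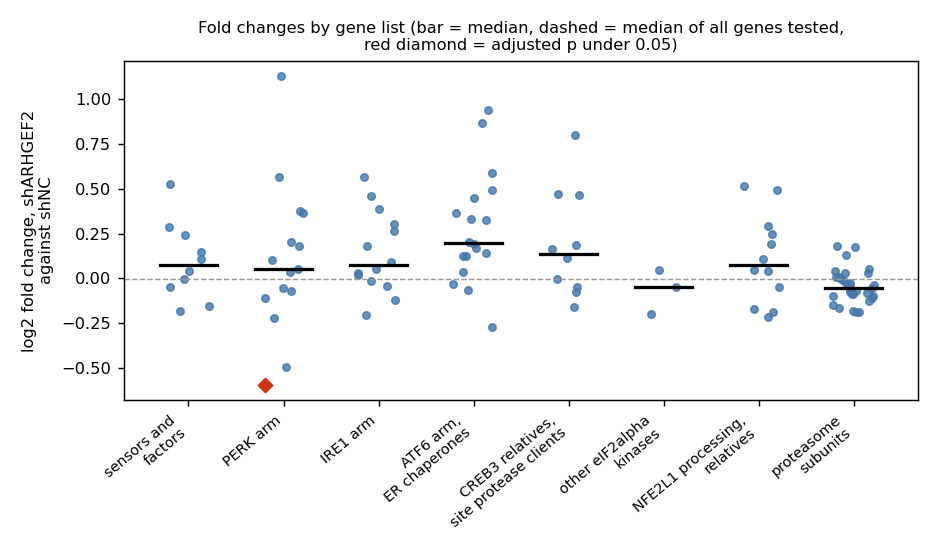
Log2 fold change of shARHGEF2 against shNC for every tested gene of the sensors and factors and of the 7 lists, with a bar at each list's median, a dashed line at the median of all genes tested and a red diamond for an adjusted p under 0.05. The list of the ATF6 arm and ER chaperones has the highest median, 0.20, and the 31 proteasome subunits have a median of -0.05. DDIT4 in the PERK arm is the 1 diamond.

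Relatives of CREB3, other clients of the site proteases and regulators of those clients formed a list of 10 genes. SCAP, INSIG1 and INSIG2 are regulators rather than clients. Of the 10 genes, 0 passed in limma (0.277% over all genes) and 3 had a higher value at an unadjusted p under 0.05 (8.1% over all genes). CREB3L1 (OASIS), known for collagen secretion, had 6.16, 5.52 and 7.42 FPKM in shNC and 10.05, 8.49 and 9.01 FPKM in shARHGEF2. Its groups did not overlap (log2 fold change 0.47, SE 0.13, limma adjusted p = 0.173), and neither did those of CREB3L3 (CREBH), a factor known from liver, with means of 0.471 ± 0.0458 and 1.06 ± 0.412 FPKM (0.46, adjusted p = 0.249). At this low level the log2 fold change of CREB3L3 depended on the pseudocount and was 0.95 with 0.1 in place of 1 (adjusted p = 0.250 in limma). CREB3L4 was at -0.08 (adjusted p = 0.861 in limma) and the gene listed as C12orf49, now SPRING1, a partner of the site 1 protease, at -0.16 (adjusted p = 0.646). INSIG1, which retains SREBP factors in the ER, was the third gene with an unadjusted p under 0.05, at 0.80 (adjusted p = 0.290 in limma), and is named after its values were seen. Of the 10, 6 changes were above 0 (49.6% over all genes) and 4 below, with a median of 0.14 that was 0.06 without shARHGEF2 replicate 2.

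The other kinases of eIF2alpha gave 0 of 3 genes that passed in limma (0.277% over all genes), and 0 at an unadjusted p under 0.05. EIF2AK1 (HRI), the heme-regulated kinase, was at 0.05 (limma adjusted p = 0.915), EIF2AK4 (GCN2), the amino acid sensor, at -0.20 (adjusted p = 0.616), and EIF2AK2 (PKR), the double-stranded RNA sensor, at -0.05 (adjusted p = 0.940). EIF2AK1 was the most abundant of the eIF2alpha kinases, with means of 22.2 ± 3.06 and 22.9 ± 2.46 FPKM, and stood above EIF2AK3 in every library.

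The list of NFE2L1 processing factors and relatives had 12 of 14 genes tested, DDI1 not being in the table and FBXW7 lying under the filter. None passed in limma (0 of 12, against 0.277% of all genes), and 2 had a higher value at an unadjusted p under 0.05 (8.1% over all genes). Of the 12 changes, 8 were above 0 (49.6% over all genes) and 4 below, and the median was 0.08. SYVN1, which ubiquitinates NFE2L1 at the ER, is also a gene of the ATF6 list and is given there. MAFK, a small MAF partner, was at 0.29 (limma adjusted p = 0.343), BTRC, a ubiquitin ligase subunit, at -0.19 (adjusted p = 0.603), and NGLY1, the glycanase that activates NFE2L1, at -0.17 (adjusted p = 0.682).

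The proteasome subunits, the best known targets of NFE2L1, gave 0 of 31 that passed (0.277% over all genes). At an unadjusted p under 0.05 there were 0 (13.7% over all genes tested in limma). Their changes were 9 above 0 (49.6% over all genes) and 22 below, with a median of -0.05. The highest in rank by p were PSMD2 (0.18, adjusted p = 0.427) and PSMD7 (0.18, adjusted p = 0.455) with higher values and PSMD4 (-0.18, adjusted p = 0.384) and PSMB2 (-0.19, adjusted p = 0.510) with lower values in shARHGEF2 (limma). Summed over the 31 subunits, FPKM was 1390 to 1506 in shNC and 1369 to 1483 in shARHGEF2, ranges that overlapped.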

How the data were processed

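Poly(A) RNA of 6 libraries was made into strand-marked (dUTP) libraries with molecular identifiers and sequenced as paired ends. The authors deposited FPKM per gene, and the submitters' processing notes name cutadapt 1.9, HISAT2 2.0.4, UMI-tools, StringTie 1.3.4d and the build hg19, without their settings. The table also holds the authors' fold changes and p-values, which were not used. Read counts were not used: 39.9% to 41.4% of low values per library came close to a whole number of fragments, so counts could not be recovered and the depth per library is not known. FPKM summed to 321180 to 350261 per library and were not rescaled.

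After a test on simulated data, log2(FPKM + 1) values were fitted without a block for genes whose mean reached 0.5 FPKM. The fit used R 4.3.3, limma 3.58.1 and statmod 1.5.0, and eBayes had a trend and robust variances. P-values were adjusted over 12291 genes (Benjamini-Hochberg), with a threshold of 0.05. Exact permutation tests compared mean FPKM (SciPy 1.17.1, two-sided). The table was read with Python 3.11.15 and pandas 2.3.3, and plots were drawn with matplotlib 3.10.9. Gene positions came from GENCODE 29 on GRCh38, which held 94.8% of the 112516 transcripts listed, and promoters from RefSeq (GRCh38.p14). The genes described and the lists were chosen with earlier results of these data known. Named genes were the 10 sensors and factors, ARHGEF2, every list gene that passed or otherwise the 2 higher and the 2 lower genes of each list with the smallest p, and for XBP1 and NFE2L1 the 3 genes with the highest r.

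The settings tried as alternatives were the replicate number as a block, 0.1 as the pseudocount, no filter, at least 1 FPKM in 3 libraries, quantile normalization, median ratio scaling, eBayes with neither trend nor robust variances, leaving out 1 library at a time, and, added after the data were seen, removal of each library's GC trend (loess, span 0.3).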

Additional observations from a re-analysis of the deposited data

How the results depend on the processing

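None of the 10 sensors and factors passed an adjusted p of 0.05 in limma under any of 14 alternatives, and 133 of their 140 recomputed changes kept their direction. The 7 that changed sign all came from leaving out 1 library, with log2 fold changes of -0.092 to 0.24 for ATF6, -0.060 to 0.079 for CREB3 and -0.12 to 0.030 for MBTPS1. Among the other named genes the sign also changed on leaving out 1 library for SEL1L (-0.18 to 0.067), CREB3L4 (-0.17 to 0.030), EIF2AK1 (-0.035 to 0.15) and EIF2AK2 (-0.13 to 0.080). The 34 genes that passed became 0 with the replicate block, 1 with no filter (27605 genes tested), 54 with at least 1 FPKM in 3 libraries, 19 with quantile normalization, 7 with median ratio scaling, 7 without trend or robust variances, and 6 to 102 on leaving out 1 library. The cause was not tested. With the block, 1976 genes had an unadjusted p under 0.05 in limma, against 1678 without it. Same-numbered libraries deviated together with r of 0.184, 0.159 and -0.105, and differently numbered ones with r of -0.221 to 0.068. The labels do not say whether the numbers pair the libraries, and these values do not settle it. The main fit did not use the numbers. ARHGEF2 had an adjusted p of 0.0716 with the block and 0.0701 with no filter. The median change of the list of CREB3 relatives, site protease clients and their regulators, 0.14, was 0.065 to 0.15 on leaving out 1 library. The smallest change among the 34 genes that passed was 0.60 in size on the log2 scale, and that of XBP1 was 0.52.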
